A study of Gallus gallus with 6 samples.

Results

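Tyrosine hydroxylase (*TH*, gene8125) and cocaine- and amphetamine-regulated transcript prepropeptide (*CARTPT*, gene19266) were described over 6 small yellow follicles of laying hens. They are 2 of the 17992 genes in the deposited table and were taken by their gene numbers. Both were selected on their ratios in these data, so their levels and ratios are given as a description, with no test. The follicles measured 6 to 8 mm and came from 3 wild-type Jining Bairi hens aged 30 weeks, 2 follicles a hen, with 1 RNA library per follicle and no treatment. T1 and T4 came from hen 1, T2 and T5 from hen 2, and T3 and T6 from hen 3. The study set follicles with a higher and a lower level of the FSH receptor (*FSHR*, gene4883) of the same hen against each other. The submitters' titles give the higher *FSHR* level to the follicles labelled T1, T2 and T3, while the *FSHR* values of the table were higher in T4, T5 and T6, the order that the paper also uses. In the paper's qRT-PCR the *FSHR* difference was large in hen 1, small in hen 2 and within the stated error in hen 3. The follicles are therefore called by their numbers, and each ratio sets T4 against T1, T5 against T2, or T6 against T3, with the first as numerator.

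*TH* encodes the rate-limiting enzyme of catecholamine synthesis, which turns tyrosine into L-DOPA, from which dopamine and then noradrenaline are made. In vertebrates it marks catecholamine neurons, sympathetic nerve fibres and adrenal chromaffin cells. *CARTPT* encodes the precursor of the CART peptides, neuropeptides of brain and gut. In cattle it is also made by granulosa cells, the epithelium around the oocyte that carries the FSH receptor. In a small yellow follicle, the oocyte and its granulosa layer are wrapped in a theca that carries stroma, blood vessels and nerve fibres. In such whole-follicle RNA, fewer cells of a type and less RNA per cell cannot be told apart, and the cells that made *TH* or *CARTPT* RNA were not identified.

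In the deposited table *TH* lies on chromosome 5, from 13093837 to 13117440 on the plus strand, with a listed length of 8739 bases in a span of 23604 bases. *CARTPT* lies on chromosome Z, from 72967832 to 72969139 on the plus strand, with 1039 bases listed in a span of 1308 bases. The sources name different genome builds, so the build of these positions is not settled, and exons and UTRs were not analysed here. The name *CARTPT* rests on the protein description given with its gene number. The library kit does not mark strand, and a RefSeq annotation of a later chicken build places 1 long non-coding RNA gene over *TH* and 0 genes over *CARTPT*. Fragments of *TH* and of an overlapping RNA could not be told apart.

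The libraries held between 12554570 and 13932308 estimated fragments, and between 11895 and 12497 genes reached 1 FPKM. FPKM scales the fragments of a gene to a length set for its transcript and to the size of the library. The normalized count is a gene's estimated number of fragments divided by 1 factor per library. T4 stood apart from the other follicles, with Spearman correlations over genes of 0.866 to 0.932, against 0.943 to 0.977 among the others. The sources used here name no sequencing batch. Since hen 1 holds T4, values are given for each hen.

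*TH* was low in T1, T2 and T3 and a gene of middle to high level in T4, T5 and T6. Its level was 0.586 FPKM in T1, 2.70 FPKM in T2 and 1.01 FPKM in T3. In the follicles paired with them it was 60.5 FPKM in T4, 16.6 FPKM in T5 and 35.7 FPKM in T6. The groups did not overlap, and the lowest of T4 to T6 was 6.14 times the highest of T1 to T3. Such a separation, with all of T4 to T6 above all of T1 to T3, held for 5.94% of the 12381 genes that reached 1 FPKM in 3 or more follicles. By FPKM, *TH* ranked 13044th, 10645th and 12485th of all genes in T1, T2 and T3. It ranked 2131st in T4, 5379th in T5 and 3314th in T6.

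**Figure D1:**
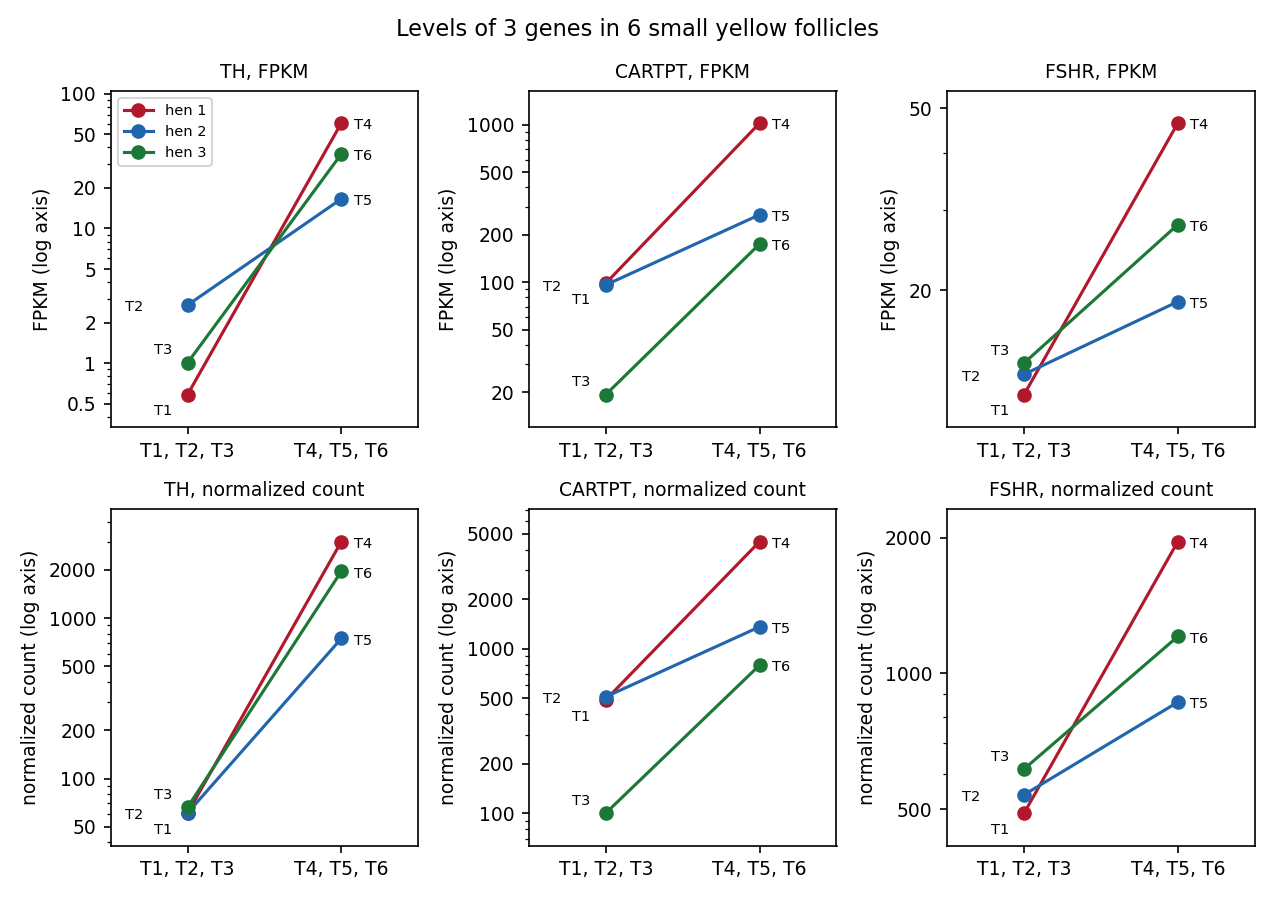
Levels of *TH*, *CARTPT* and *FSHR* in FPKM (top) and normalized counts (bottom) on log axes, with a line joining the 2 follicles of each hen. In all panels T4, T5 and T6 lie above the follicle of the same hen. The normalized counts of *TH* in T1, T2 and T3 fall together at 60.9 to 66.2, while their FPKM spread from 0.586 to 2.70.

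The normalized counts of *TH* gave another picture of the low follicles. They were 60.9 in T1, 61.0 in T2 and 66.2 in T3, and then 2999 in T4, 747 in T5 and 1959 in T6. T1, T2 and T3 thus lay within a ratio of 1.09 of each other by normalized count, but within a ratio of 4.61 by FPKM. In estimated fragments T1 had 65 (95% exact Poisson interval 50.2 to 82.8), T2 had 62 (47.5 to 79.5) and T3 had 69 (53.7 to 87.3), so at this depth no order among them was detectable. Fragments were not counted by molecule, so these intervals cover counting error only. The separation of the groups was wider in counts, with the lowest of T4 to T6 at 11.3 times the highest of T1 to T3. By normalized count *TH* ranked from 10734th to 10859th in T1 to T3, and 840th in T4, 4184th in T5 and 1454th in T6.

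The conversion between both measures was therefore not the same in all follicles for *TH*. FPKM per normalized count of *TH* was 0.00962 in T1, 0.0443 in T2 and 0.0152 in T3. In T4, T5 and T6 it was 0.0202, 0.0222 and 0.0182. From lowest to highest this was a ratio of 4.60. Over the 11115 genes with at least 20 normalized counts in every follicle, the same ratio had a median of 1.13 and a 99th percentile of 2.12. *TH* was above 99.9% of these genes, and 8 genes, *TH* included, were at or above its value. *CARTPT* had a ratio of 1.21 and *FSHR* of 1.11, near the median of all genes.

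FPKM divides by a length, which need not be that of the whole transcript. Fragments and FPKM together imply the length that was used. For *TH* this length was 8117 bases in T1, close to the 8739 listed, but 1833 bases in T2 and 5065 in T3. In T4, T5 and T6 it was 3661, 3508 and 3897 bases. It differed most among the 3 follicles with few *TH* fragments and little among those with many. For *CARTPT* it lay between 324 and 432 bases over the 6 follicles, under the 1039 listed, and for *FSHR* between 3080 and 3559 of 3486. As a share of the listed length, the median over follicles was 0.378 for *CARTPT*, 0.432 for *TH* and 0.941 for *FSHR*. Over 11115 genes this share had a median of 0.830 and a lower quartile of 0.638. These genes were not matched to *CARTPT* by listed length. Whether the share depends on listed length was not tested, so nothing is concluded from the low share of *CARTPT*. Values for single transcripts of *TH* were not analysed here, and the part of transcript choice in these lengths was not tested.

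**Figure D2:**
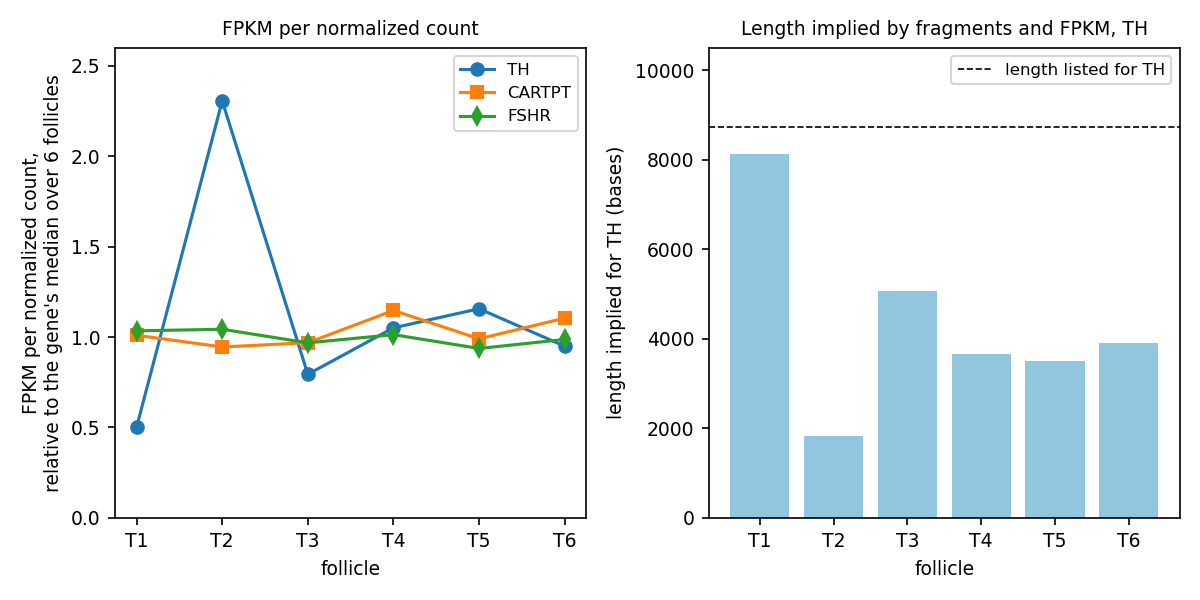
Left, FPKM per normalized count in each follicle, relative to the median over the 6 follicles, for *TH*, *CARTPT* and *FSHR*. Right, the length in bases that the fragments and FPKM of *TH* imply in each follicle, with the listed 8739 bases as a dashed line. *TH* is low in T1 and high in T2 on the left, matching 8117 and 1833 bases on the right, while *CARTPT* and *FSHR* stay near 1.

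By FPKM, *CARTPT* was an abundant RNA in most follicles, though its FPKM rests on a short implied length, 0.378 of the listed length. Its level was 98.4 FPKM in T1, 96.0 FPKM in T2 and 19.3 FPKM in T3. In T4 it was 1024 FPKM, in T5 268 FPKM and in T6 175 FPKM. T4 to T6 were all above T1 to T3, as for 5.94% of the 12381 genes that reached 1 FPKM in 3 or more follicles. The gap was narrow, with T6 at 1.78 times T1. By FPKM *CARTPT* ranked 97th of all genes in T4, 441st in T5 and 717th in T6. It ranked 1264th in T1 and 1278th in T2, and only 5117th in T3. By normalized count, which is not scaled to length, it ranked lower, at 443rd in T4, 2121st in T5 and 4105th in T6. In T1, T2 and T3 it then ranked 5840th, 5610th and 10218th.

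*CARTPT* also differed between hens on the same side. T3 was 5.10 times lower than T1, and T6 was 5.86 times lower than T4, so hen 3 had the lowest level on both sides. T1 and T2 were nearly equal, as *TH* was in counts. The normalized counts of *CARTPT* repeated the FPKM pattern, with 491, 511 and 100.3 in T1, T2 and T3, and 4496, 1362 and 797 in T4, T5 and T6. The estimated fragments of T3, 104 (95% exact Poisson interval 85.0 to 126), were far below those of T2, 521 (477 to 568).

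The receptor itself moved less. *FSHR* was 11.9, 13.1 and 13.9 FPKM in T1, T2 and T3, against 46.4, 18.9 and 27.8 FPKM in T4, T5 and T6. The gap between the sides was 1.36 times in FPKM and 1.41 times in normalized counts. In a hen, the order of ratios was thus *TH*, *CARTPT* and *FSHR* in all 3 hens on both scales.

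The ratio of *TH* within a hen was 103 in hen 1, 6.14 in hen 2 and 35.4 in hen 3 in FPKM. In normalized counts it was 49.2, 12.2 and 29.6. The hens kept their order, with hen 1 highest and hen 2 lowest, but counts drew hens 1 and 2 together, since the FPKM ratio was 2.10 times the count ratio in hen 1 and 0.501 times in hen 2. As log2 ratios the means were 4.27 ± 1.72 (SD, n = 3 hens) in FPKM + 0.5 and 4.69 ± 1.02 (SD, n = 3 hens) in normalized counts + 1.

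For *CARTPT* the ratio was 10.4 in hen 1, 2.79 in hen 2 and 9.06 in hen 3 in FPKM, and 9.16, 2.66 and 7.94 in normalized counts. Its mean log2 ratio was 2.67 ± 1.04 (SD, n = 3 hens) in FPKM + 0.5 and 2.53 ± 0.97 (SD, n = 3 hens) in normalized counts + 1. For *FSHR* the mean log2 ratio was 1.14 ± 0.72 (SD, n = 3 hens) in FPKM + 0.5. All 3 genes had their smallest ratio in hen 2.

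Both genes were among those furthest up within each hen, which is what they were chosen for. By log2 ratio of FPKM + 0.5, *TH* ranked 3rd of 12688 genes in hen 1, 25th of 12585 in hen 2 and 5th of 12706 in hen 3. In normalized counts its ranks were 9th, 19th and 10th. *CARTPT* ranked 35th, 87th and 15th by FPKM, and 63rd, 118th and 30th by counts. *FSHR* ranked 155th, 838th and 356th by FPKM. At least 2-fold higher were 5.38% of genes in T4 over T1, 1.46% in T5 over T2 and 2.61% in T6 over T3. At least 2-fold lower were 13.3%, 3.31% and 4.41%. *TH* and *CARTPT* were 2 of the 34 genes, 0.275% of 12381, that were at least 2-fold higher in all 3 hens.

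**Figure D3:**
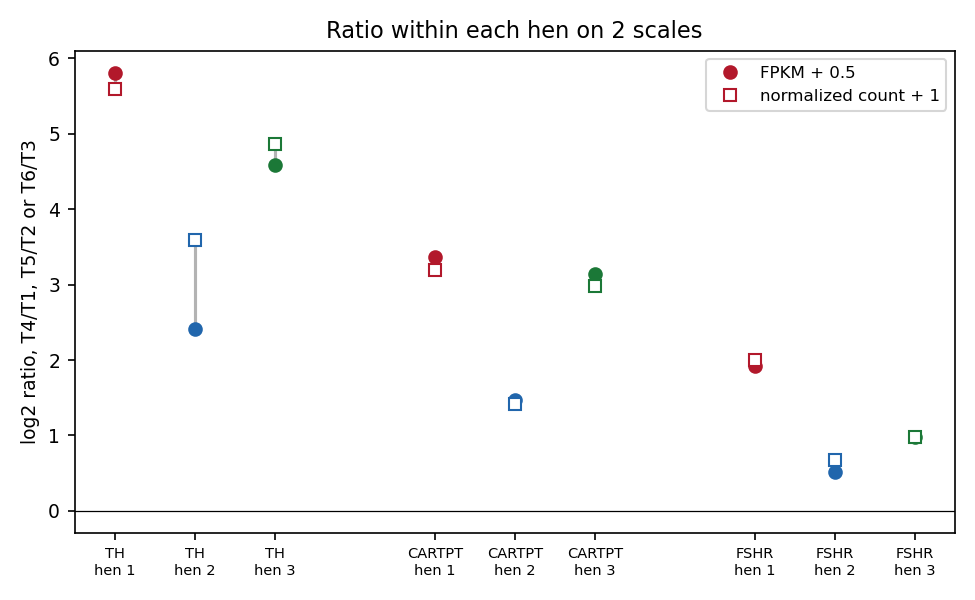
Log2 ratio within each hen for *TH*, *CARTPT* and *FSHR*, from FPKM + 0.5 (filled circles) and from normalized counts + 1 (open squares). The scales differ most for *TH* in hen 2, at 2.42 and 3.59, and nearly coincide for *CARTPT* and *FSHR*.

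*TH* followed *FSHR* closely over the follicles, which the selection of *TH* on its ratios within hens favoured. By normalized count both genes had the same order, T4, T6, T5, T3, T2 and T1, although *TH* in T1 to T3 was within counting error. Pearson's r of log2 values was 0.93 in FPKM + 0.5 and 0.95 in normalized counts + 1, with Spearman's rho of 0.94 and 1, over 6 follicles. Without hen 1, 2 or 3, r in FPKM was 0.93, 0.97 and 0.93 over 4 follicles. The points share hens, and T4 is the highest point of both genes, so no p is given. Because *FSHR* was also higher in T4, T5 and T6, a high r was partly built in. The order T4, T6, T5 and then the rest was shared by 319 of 12381 genes, which is 2.58%.

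*TH* changed by more than *FSHR* within each hen. *TH* had 0.108 to 0.124 normalized counts per normalized count of *FSHR* in T1, T2 and T3. In T4, T5 and T6 it had 1.53, 0.864 and 1.62. These groups did not overlap, and T1 to T3 were nearly equal to each other. Because *TH* was selected on its ratios within hens, higher quotients in T4 to T6 were built in. The share of genes with such quotients was not analysed. By FPKM the quotients of T1, T2 and T3 were 0.0494, 0.206 and 0.0726, and those of T4, T5 and T6 were 1.30, 0.877 and 1.28.

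*CARTPT* followed *FSHR* less closely. Its order was T4, T5, T6, T1, T2 and T3 by FPKM, so that T3, the highest of T1 to T3 in *FSHR*, was the lowest in *CARTPT*. Over 6 follicles r was 0.80 in FPKM + 0.5, with rho of 0.71, and 0.77 in normalized counts + 1. Without hen 1, r in FPKM was 0.61 over 4 follicles. Without hen 2 or hen 3 it was 0.86 and 0.99. A positive r was favoured by the selection of *CARTPT* on its ratios. *CARTPT* had 1.0, 0.949 and 0.163 normalized counts per normalized count of *FSHR* in T1, T2 and T3, and 2.29, 1.58 and 0.659 in T4, T5 and T6. Here the groups overlapped, since T6 lay under T1 and T2. Within each hen the follicle with more *FSHR* in the deposited values still had the higher quotient, which the selection of *CARTPT* on its ratios favoured.

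*TH* and *CARTPT* followed each other with r of 0.82 in FPKM + 0.5 and 0.79 in normalized counts + 1, and rho of 0.77 on both scales. Both were selected on their ratios in the same pairs, so a positive r was largely built in. Without hen 1, 2 or 3, r in FPKM was 0.86, 0.81 and 0.95. They were not each other's nearest genes. *CARTPT* was 438th of 12380 genes by r with *TH*, and *TH* was 849th by r with *CARTPT*. *FSHR* was 83rd for *TH* and 1006th for *CARTPT*. An r of at least 0.9 was reached by 152 genes with *TH* and by 334 genes with *CARTPT*.

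**Figure D4:**
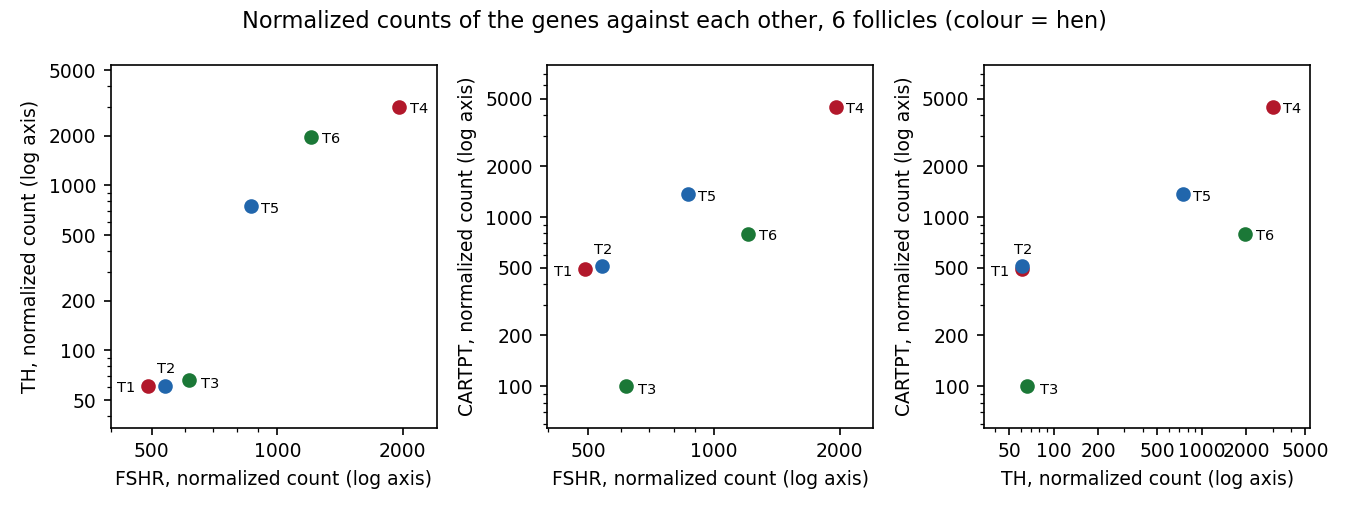
Normalized counts on log axes in the 6 follicles, *TH* against *FSHR*, *CARTPT* against *FSHR* and *CARTPT* against *TH*, with a colour for each hen. *TH* has a flat group of T1, T2 and T3 near 61 to 66 and then climbs with *FSHR*, while T3 and T6 of hen 3 lie low in *CARTPT*.

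Of the 25 genes most like *TH* by r (0.964 to 0.988), 7 are named here. Names came from genes that the paper listed as different between T1 and T4, so large ratios in hen 1 were built into the names. The first was *CHST8*, a carbohydrate sulfotransferase that adds sulfate to the sugar chains of pituitary glycoprotein hormones. It was 0.58, 0.74 and 0.63 FPKM in T1, T2 and T3, against 5.42, 2.01 and 3.43 FPKM in T4, T5 and T6.

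*GAL3ST2*, which sulfates galactose, had a log2 ratio of 3.47 in hen 1, 1.43 in hen 2 and 2.74 in hen 3. *MMEL1*, a membrane metallopeptidase, had 3.49, 0.62 and 1.95. *STON2* (an endocytic adaptor), *CHST15* and *CHST12* (carbohydrate sulfotransferases) and *TMEM117* (a membrane protein) had ratios between 0.43 and 2.28. Each was smaller than that of *GAL3ST2* in the same hen. In hen 2 *CHST15*, at 0.67, and *CHST12*, at 0.66, were above *MMEL1*. Over the 25 genes the median log2 ratios were 0.73, 0.35 and 0.60, far under the ratios of *TH* itself. Of the 24 that had more than 3 fragments in any follicle, 3 were at least 2-fold higher in all 3 hens. Among the 3, *CHST8* and the unnamed gene10079 reached 1 FPKM in T4, T5 and T6 only. The demand for 1 FPKM in 3 or more follicles thus fixed their direction. Over 12381 genes the share was 0.275%, but choosing genes by likeness to *TH* favours such genes.

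Of the 25 genes most like *CARTPT* (r of 0.978 to 0.994), 4 had a name. *DENR*, a factor of translation reinitiation, was 57.3, 65.2 and 37.4 FPKM in T1, T2 and T3, against 139, 82.9 and 77.1 FPKM in T4, T5 and T6. It was lowest in hen 3 on both sides, as *CARTPT* was. *EDEM2*, which takes part in the degradation of misfolded glycoproteins in the endoplasmic reticulum, had log2 ratios of 1.46, 0.31 and 1.45. *NDE1*, a protein of the centrosome and of dynein, had 1.01, 0.17 and 1.0, and *C6orf222* had 1.88, 0.56 and 1.48. The median log2 ratios of the 25 genes were 0.55, 0.19 and 0.51, and 0 of the 25 were at least 2-fold higher in all 3 hens. The share over 12381 genes was 0.275%.

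Of the 10 nearest genes of *TH*, 5 on each side, 9 had more than 3 fragments in any follicle. Of these 9, 1 was at least 2-fold higher in hen 1, 0 in hen 2 and 1 in hen 3, while 0, 1 and 1 were at least 2-fold lower. In genes at 1 FPKM or more in either follicle, 5.38%, 1.46% and 2.61% were higher in hens 1, 2 and 3. In the same genes 13.3%, 3.31% and 4.41% were lower. The gene lower in hen 3, Chicken_newGene_1864, had 2.89 normalized counts in T3 and 0 in T6, so its fold there lies at the floor. The gene left aside, next downstream (gene8126, 8511 bases away on the same strand), was chosen for mention after its values were seen. It had 0 fragments in T1, T2 and T3 and 3, 2 and 2 in T4, T5 and T6, at or under a floor of 3 fragments, so no fold is given. *TSPAN32*, a tetraspanin upstream on the other strand, was 3.98, 2.91 and 3.15 FPKM in T1, T2 and T3, against 11.8, 2.19 and 5.24 FPKM in T4, T5 and T6. Its T5 lay under T2, unlike *TH*.

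Of the 10 nearest genes of *CARTPT*, 6 had more than 3 fragments in any follicle. Of these 6, 1 was at least 2-fold higher in hen 1, 1 in hen 2 and 0 in hen 3, and 0 were at least 2-fold lower in any hen. In genes at 1 FPKM or more in either follicle, 5.38%, 1.46% and 2.61% were higher in hens 1, 2 and 3. In the same genes 13.3%, 3.31% and 4.41% were lower. The gene higher in hens 1 and 2 was *BDP1*, a part of the RNA polymerase III factor TFIIIB, which ends 42974 bases upstream. It was 10.4, 8.36 and 11.4 FPKM in T1, T2 and T3, against 52.6, 19.4 and 23.3 FPKM in T4, T5 and T6, with log2 ratios of 2.29, 1.17 and 0.998. Between *BDP1* and *CARTPT* lies gene19265, chosen for mention after its values were seen. It was 13.8, 10.1 and 10.4 FPKM in T1, T2 and T3, against 9.28, 9.66 and 9.06 FPKM in T4, T5 and T6, so the gene nearest to *CARTPT* did not share its direction. An unnamed gene upstream of *BDP1*, Chicken_newGene_3918, was 6th in likeness to *CARTPT* (r = 0.988), with log2 ratios of 0.94, 0.26 and 0.75.

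The other genes of catecholamines, peptides and neurons could be followed only in part, because a gene number was tied to a name only through genes that the paper listed as different between T1 and T4. Ratios in hen 1 were thereby chosen to be large and are not independent evidence of direction. Of 17 listed genes of catecholamine synthesis and handling, 2 were matched, *TH* and *COMTD1*, which is named for a catechol O-methyltransferase domain. *COMTD1* was 9.83, 9.17 and 7.15 FPKM in T1, T2 and T3, against 24.6, 13.8 and 9.84 FPKM in T4, T5 and T6. The next enzymes of the pathway, DOPA decarboxylase and dopamine beta-hydroxylase, and the amine transporters were not analysed here.

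Of 21 listed peptide precursors and their processing enzymes, 5 were matched. Beside *CARTPT* these were *RLN3*, *PENK*, *PTHLH* and *PCSK2*. The relaxin family peptide gene *RLN3* had log2 ratios of 5.72, 2.47 and 1.29. It thus had its lowest ratio in hen 3, where *TH* and *CARTPT* had theirs in hen 2. *PTHLH*, which encodes parathyroid hormone-related protein, had 2.35, 0.80 and 1.30, and the enkephalin precursor *PENK* 1.86, 0.05 and 0.86. In normalized counts + 1 *PENK* had -0.04 in hen 2. The prohormone convertase gene *PCSK2* had 1.22, 0.04 and -0.93, so it did not keep the direction of *CARTPT* in hen 3.

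Of 20 listed receptors of transmitters and peptides, 7 were matched. Those at least 2-fold higher numbered 6 in hen 1, 1 in hen 2 and 4 in hen 3. Those at least 2-fold lower numbered 1, 0 and 1. Over genes at 1 FPKM or more in either follicle, the shares were 5.38%, 1.46% and 2.61% higher, and 13.3%, 3.31% and 4.41% lower. The matched genes were counted without this filter, and the matching chose large ratios in hen 1. The histamine receptor gene *HRH3* was 0.414, 0.436 and 0.717 FPKM in T1, T2 and T3, against 5.93, 0.839 and 4.97 FPKM in T4, T5 and T6. The serotonin receptor gene *HTR7* had log2 ratios of 1.40, 0.99 and 1.29. The receptor of vasoactive intestinal peptide, *VIPR2*, went both ways, with -2.04, 1.44 and -1.19. The genes *CHRNA7*, *GALR3*, *CALCR* and *GRIA4* had ratios between -0.15 and 2.12. *HRH3*, *GALR3*, *CALCR* and *GRIA4* reached 1 FPKM in fewer than 3 follicles, so their ratios lean on values near the floor and on the pseudocount. No dopamine or adrenergic receptor was among the matched genes. Only 321 genes had a name, so the levels of such receptors were not followed here.

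Of 17 listed genes of neuronal transmission and neurotrophins, 8 were matched. Those at least 2-fold higher numbered 6 in hen 1, 1 in hen 2 and 3 in hen 3. Those at least 2-fold lower numbered 2, 0 and 0. The shares in genes at 1 FPKM or more in either follicle were 5.38%, 1.46% and 2.61% higher, and 13.3%, 3.31% and 4.41% lower. The matching again chose large ratios in hen 1. *SLC5A7*, the choline transporter of cholinergic neurons, had 0.803, 1.78 and 3.47 FPKM in T1, T2 and T3, against 35.7, 10.6 and 18.2 FPKM in T4, T5 and T6. Its log2 ratios were 4.80, 2.29 and 2.24. The neuronal RNA-binding protein gene *ELAVL4* had 3.09, -0.05 and 2.51, and the proteoglycan gene *CSPG5* 2.02 in hen 1, 0.78 in hen 2 and 1.15 in hen 3. In normalized counts + 1 *ELAVL4* had 0.63 in hen 2, so its direction there differed between the scales. *NTRK2*, the receptor of BDNF, had 2.41, 0.48 and 0.86, and the receptor gene *NTRK3* -1.90, -0.04 and -0.19. *SYT7* had -1.85, 0.32 and -0.17, while *VSNL1* and *SCN3B* had ratios between -0.03 and 2.11.

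**Figure D5:**
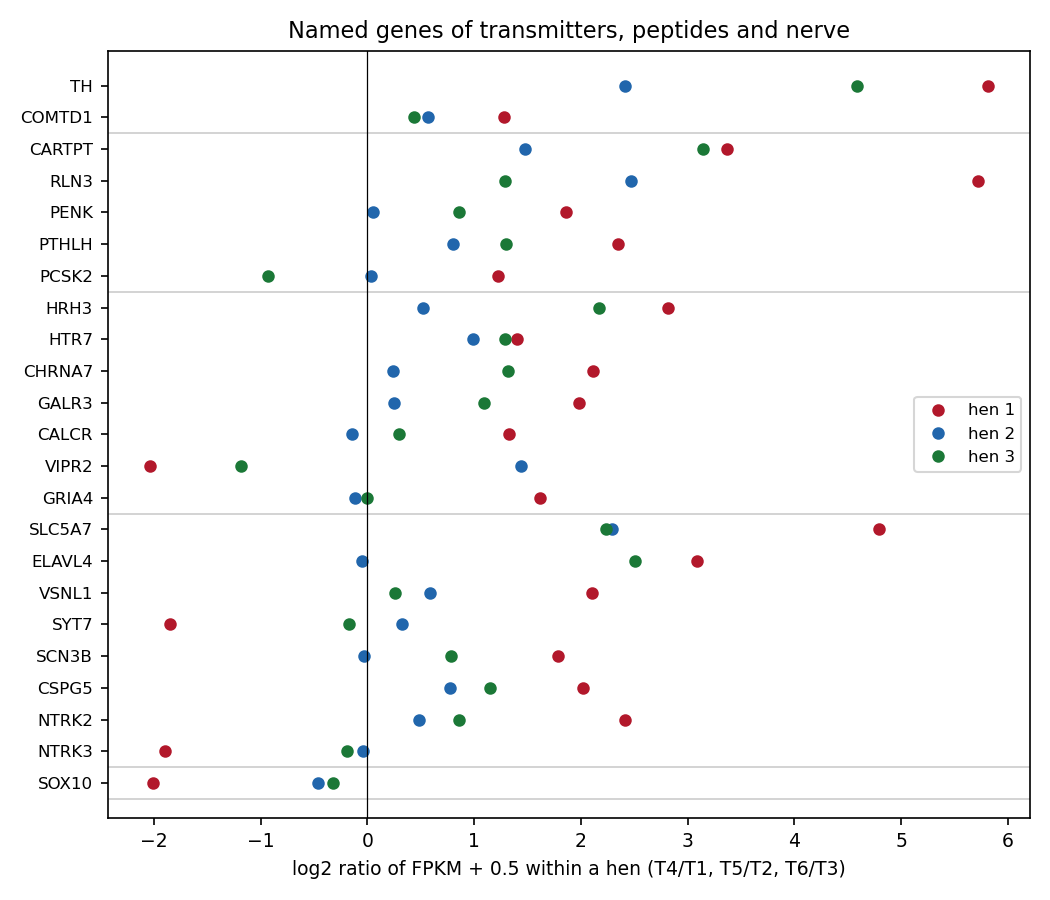
Log2 ratio of FPKM + 0.5 within each hen for the matched genes of catecholamines, peptide precursors, receptors, neuronal transmission and nerve or glia, from top to bottom and separated by grey lines. *TH*, *CARTPT*, *RLN3* and *SLC5A7* lie above 1 in all 3 hens, and *NTRK3* and *SOX10* lie below 0 in all 3.

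Of the 10 listed genes of FSH signalling, 3 were matched. Beside *FSHR*, the adenylyl cyclase gene *ADCY3* had log2 ratios of 1.44, 0.26 and -0.25, and the phosphodiesterase gene *PDE11A* 1.39, 0.11 and 0.42. In normalized counts + 1 these were 2.16, 0.71 and 0.10 for *ADCY3*, and 2.72, -0.08 and 0.60 for *PDE11A*. The direction thus differed between the scales for *ADCY3* in hen 3 and for *PDE11A* in hen 2. In FPKM + 0.5 neither reached 2-fold in hen 2 or hen 3, and nor did *FSHR*, at log2 ratios of 0.51 and 0.98. Without the added 0.5, the FPKM ratio of *FSHR* was 1.44 in hen 2 and 2.01 in hen 3. *TH* and *CARTPT* reached 2-fold in both hens, but they were selected on their ratios. *PDE11A* reached 1 FPKM in fewer than 3 follicles.

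In the model over the 3 pairs with hen as a block (limma, Benjamini-Hochberg adjustment), 0 of 12381 genes were called at an adjusted p under 0.05, which is 0%, and 708 had an unadjusted p under 0.05. Of the 34 listed genes that passed the filter, *TH*, *CARTPT* and *FSHR* left aside, 0 were called and 15 had an unadjusted p under 0.05. These genes were named through differences between T1 and T4, 1 of the 3 pairs fitted, so a high share of low p was built in. Without hen 1, 466 genes were called, 9 of the listed genes among them. That fit rests on 1 residual degree of freedom, and the lists were chosen with earlier results of these data known. Without hen 1 and without the trend and robust options, an alternative added after the data were seen, 21 genes were called, 1 of the listed genes among them.

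Markers of the cell types of the follicle were matched to gene numbers in the same way, through genes that the paper listed as different between T1 and T4, so a large change of each marker in hen 1 was built in. The summed level of 7 matched granulosa markers of 9 listed was 2477, 3039 and 2330 FPKM in T1, T2 and T3, against 14057, 5858 and 5798 FPKM in T4, T5 and T6. *ZP3*, the gene of an egg coat protein, makes up most of the sum, and the list holds *FSHR*. The median log2 ratio of the 7 was 1.92 in hen 1, 0.14 in hen 2 and 1.07 in hen 3. In hen 2 the signalling gene *WNT4* was at -0.67 and the transcription factor gene *GATA4* at -0.04, and in hen 3 *GATA4* was at -0.07. *WNT4* was at 1.99 in hen 3. The other matched granulosa markers were above 0 in both hens, with *ZP3* at 1.03 and 1.07 and *FSHR* at 0.51 and 0.98. The 6 matched markers of theca and stroma of 8 summed to 5211, 3870 and 6620 FPKM in T1, T2 and T3, but to 988, 4012 and 5832 FPKM in T4, T5 and T6. Their median log2 ratio was -2.51 in hen 1, -0.06 in hen 2 and -0.14 in hen 3. The part of cell composition in the ratios of *TH* and *CARTPT* was not tested in any hen.

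Of 7 listed nerve and glia markers, *SOX10* and *NTRK3* were matched, and their sum was 7.50, 10.8 and 9.60 FPKM in T1, T2 and T3, against 1.21, 8.99 and 7.93 FPKM in T4, T5 and T6. Their median log2 ratio was -1.96 in hen 1, where the matching chose it to be large, and -0.25 in hens 2 and 3. Neither marker was at 0 in any follicle. The 2 matched endothelial markers of 4 summed to 7.30 FPKM in T4 and to 35.1 to 58.6 FPKM elsewhere. The muscle marker *DES*, 1 of 3 listed, was 54.8 FPKM in T4 and 181 to 393 FPKM elsewhere. The macrophage marker *MPEG1*, 1 of 3 listed, ranged from 0.512 FPKM in T4 to 51.6 FPKM in T3, and its log2 ratios were -2.25, -0.83 and -1.22.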

How the data were processed

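The authors deposited 1 table with 2 values per gene and follicle, an FPKM and a normalized count, a signal equal to estimated fragments divided by 1 factor per library. Per the submitters' processing notes, Bowtie 0.12.2 was used with Cufflinks, while the sources conflict over the genome build. Between 88.6% and 89.1% of low normalized counts in a library were whole multiples (within 0.02) of a common step, from which fragment totals were computed. As the others were fractions, no count model was used. Other deposited columns hold gene positions, strand and length, and 1 column of values with no sample was not used.

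The members and gene lists were chosen with earlier results of these data known. Names came from the paper's supplementary list of genes that differed between T1 and T4. The part of that list that was used held 822 genes, and 321 genes were named. Genes named are *TH*, *CARTPT* and *FSHR*, matched list genes, up to 10 named genes among the 25 most like each member, and named neighbours. A gene that the rule would name is not reported here.

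The paper gives the hen of each follicle. Deviations of 2 follicles from their group means correlated at 0.43, 0.18 and 0.53 for the hens 1, 2 and 3, and at -0.46 to 0.18 for follicles of different hens. The value of hen 2 thus lay within the range of different hens. Deviations within a group cancel, which lowers the values for different hens, so this check could not settle the pairing. Ratios used log2(FPKM + 0.5) or log2(normalized count + 1). Within a hen, ranks and 2-fold counts used genes at 1 FPKM or more in either follicle. limma 3.58.1 under R 4.3.3, with hen as block and eBayes with trend and robust, used genes at 1 FPKM or more in 3 follicles, and was tested on simulated data. All else was computed in Python 3.11.15 (pandas 2.3.3, numpy 2.4.6, matplotlib 3.10.9, scipy 1.17.1). Alternatives were pseudocounts of 0.1 and 1, scaling by the median of ratios, normalized counts, other filters, a 4-fold limit, a fit without the block, leaving out each hen, and eBayes without trend and robust.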

Additional observations from a re-analysis of the deposited data

How the results depend on the processing

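The 36 ratios of *TH*, *CARTPT* and *FSHR* under other pseudocounts, median-of-ratios scaling or normalized counts kept their direction and moved by less than the SD over hens. The log2 ratio of *TH* ranged from 5.28 to 6.47 in hen 1, 2.25 to 3.59 in hen 2 and 4.19 to 5.01 in hen 3. Leaving out a hen, r of *TH* with *FSHR* ranged from 0.93 to 0.97, of *CARTPT* with *FSHR* from 0.61 to 0.99 and of *TH* with *CARTPT* from 0.81 to 0.95.

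No gene was called over the 3 pairs without the replicate block (0) or under the other settings with all hens. Leaving out each hen gave 0 to 466 genes, the 466 without hen 1, and 21 without trend and robust as well. With 2 pairs the residual spread rests on 1 degree of freedom. At a fold of 4, 138 genes were higher and 318 lower in hen 1, 41 and 43 in hen 2, and 52 and 101 in hen 3. With a pseudocount of 1, 270 genes were at least 2-fold lower in hen 2. There were 3 hens, 1 library per follicle and 62 to 69 fragments of *TH* in T1 to T3. A limit of detection was not computed, and over the 3 pairs no gene was called, whatever its ratio.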
